A study of Mus musculus with 6 samples.

Results

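A set of 8 matrix genes of stromal cells was followed in RNA sequencing of isolated mouse pancreatic islets. They are the small leucine-rich proteoglycan genes Dcn, Lum, Bgn, Fmod, Ogn, Prelp and Aspn, and Mgp, which encodes matrix Gla protein. They were chosen by name, and all 8 were found among the 24421 genes of the deposited count table. Of the islet libraries, 3 carried the label of a β cell-specific knockout, genotype C57.DhpsloxP.MIP1-CreERT, and are named HF_KO. They were set against 3 libraries labelled control, named HF_CONT. Every library was on a C57BL/6J background, and 10 ng of total RNA went into each. The knockout joins a floxed Dhps allele, the gene of deoxyhypusine synthase, to a tamoxifen-inducible Cre under a mouse insulin promoter, a driver meant for β cells and not for stromal cells. The labels did not give age, sex, diet, what HF stands for, or whether the controls carried Cre. Nor did they state that replicates came from different animals, and the p-values below can speak only of the spread among these 6 libraries, which may be technical.

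Small leucine-rich proteoglycans are secreted proteins whose curved repeats bind collagen fibrils and set how the fibrils assemble and space. Many also carry chondroitin, dermatan or keratan sulfate chains and bind growth factors such as TGF-β. In pancreas they are made mainly by fibroblasts, stellate cells and vessel-associated cells, and not by endocrine cells. Matrix Gla protein is no proteoglycan. It is a small vitamin K-dependent protein that restrains calcification and binds bone morphogenetic proteins.

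Libraries held between 21027737 and 22649734 counts in HF_KO and between 23013290 and 23249895 counts in HF_CONT. The 8 genes together took 1896 to 3170 of these counts in HF_KO and 641 to 1070 in HF_CONT. Dhps, the targeted gene, stood at 11.96 ± 0.689 CPM (counts scaled to a common library size with TMM factors) in HF_KO and 12.6 ± 0.704 CPM in HF_CONT (SD, n = 3 each). It was not called different (log2 fold change −0.07 ± 0.12 SE, adjusted p = 0.742 by edgeR's quasi-likelihood test), and its exons overlap those of Wdr83. Its level did not separate the groups, and directions below are those of libraries labelled knockout.

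Of the 8 genes, 6 rose in HF_KO: Dcn, Lum, Bgn, Prelp, Ogn and Mgp, by 2.30-fold to 4.10-fold. Fmod had the largest fitted fold change of the 8, 4.93-fold, but missed the threshold, and Aspn was not called, with groups that overlapped. Calls were made at an adjusted p under 0.05, Benjamini-Hochberg over the 13736 genes tested, all 8 genes among them. Over all tested genes 6.76% were called, 4.14% as risen and 2.63% as fallen. In 7 of the 8 genes every HF_KO library lay above every HF_CONT library, against 16.9% of all tested genes. This was not particular to the 8 genes. It also held for 14 of 15 tested acinar markers and 10 of 11 tested macrophage markers, against 8 of 15 fibroblast and quiescent stellate markers. The median log2 fold change of the 8 genes was 1.78, against 0.01 over all tested genes. Because the genes were chosen with earlier results of these data known, these counts describe them and are not independent evidence. In a bulk sample, more cells that express a gene and more RNA of it per cell cannot be told apart.

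**Figure D1:**
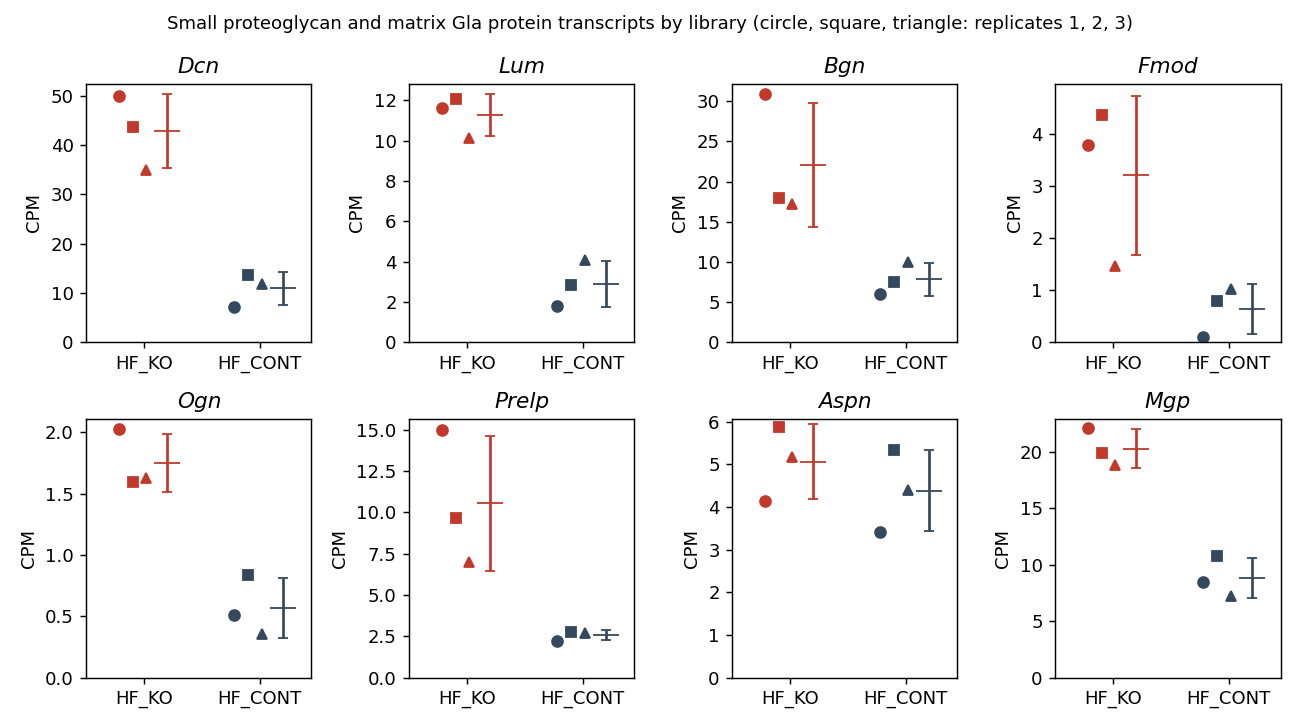
Level of each of the 8 genes in CPM, 1 point per library (circle, square and triangle for replicates 1, 2 and 3), HF_KO left in red and HF_CONT right in dark blue; the dash and bar beside each group give the mean ± SD (n = 3). The red points stand above all blue points in every panel except Aspn, where the groups overlap.

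Decorin (Dcn), biglycan (Bgn) and asporin (Aspn) form one class of the family, with decorin and biglycan carrying chondroitin or dermatan sulfate chains. Dcn (chr10:97479500-97518162, plus strand, mm10, 9 exon blocks) had 49.9, 43.6 and 34.9 CPM in HF_KO and 7.22, 13.7 and 11.8 CPM in HF_CONT. The lowest HF_KO library was well above the highest control. The fitted log2 fold change of Dcn was 1.97 ± 0.22 (SE, 95% interval 1.48 to 2.45, edgeR adjusted p = 0.00543), and only 8 of the tested genes had a smaller p. Bgn (chrX:73483635-73495936, plus strand, 8 exon blocks) had 30.9, 17.95 and 17.2 CPM in HF_KO and 5.97, 7.54 and 10.05 CPM in HF_CONT. HF_KO replicate 1 stood apart from the other two HF_KO libraries for this gene. Its log2 fold change was 1.49 ± 0.25 (SE, edgeR adjusted p = 0.0169). Bgn lost its call without HF_KO replicate 1, where the log2 fold change was 1.16 (adjusted p = 0.0517), and without HF_CONT replicate 2 (1.44, adjusted p = 0.0792, the highest of 14 alternatives whose lowest adjusted p was 7.38e-07).

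Asporin, whose protein has an aspartate-rich start and lacks the chains of its relatives, was the gene of the 8 whose groups overlapped. Aspn (chr13:49544443-49567562, plus strand, 8 exon blocks) had 4.14, 5.87 and 5.18 CPM in HF_KO and 3.42, 5.33 and 4.39 CPM in HF_CONT. The groups overlapped, and HF_KO replicate 1, the highest library for Dcn and Bgn, was the lowest HF_KO library for Aspn. Its log2 fold change was 0.20 ± 0.23 (SE, 95% interval −0.32 to 0.73, edgeR adjusted p = 0.618), an interval that reaches up to 1.66-fold. Within each library, the ratio of Dcn counts to Aspn counts does not depend on scaling. It was 12.05, 7.42 and 6.74 in HF_KO and 2.11, 2.57 and 2.69 in HF_CONT, with no overlap.

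Lumican (Lum), fibromodulin (Fmod) and PRELP (Prelp) form a second class, often modified with keratan sulfate. Lum (chr10:97565501-97572703, plus strand, 3 exon blocks), known for its part in corneal transparency, had 11.6, 12.1 and 10.1 CPM in HF_KO and 1.80, 2.83 and 4.07 CPM in HF_CONT. The HF_KO libraries agreed closely and the controls spread more. Lum rose by 1.95 ± 0.26 on the log2 scale (SE, edgeR adjusted p = 0.00882). Prelp (chr1:133910304-133921401, minus strand, 3 exon blocks), which has a basic start that binds heparan sulfate, had 15.01, 9.63 and 7.01 CPM in HF_KO and 2.22, 2.79 and 2.69 CPM in HF_CONT. Here the controls agreed closely and the HF_KO libraries spread. Prelp rose by 2.04 ± 0.28 (SE, edgeR adjusted p = 0.00919).

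Fibromodulin binds collagen in tendon and cartilage. Fmod (chr1:134037515-134048277, plus strand, 3 exon blocks) had 86, 93 and 29 counts in HF_KO and 2, 19 and 26 counts in HF_CONT, or 1.47 to 4.37 CPM in HF_KO and 0.0926 to 1.03 CPM in HF_CONT. HF_KO replicate 3 lay close to HF_CONT replicate 3, and HF_CONT replicate 1 was far below the other controls. The log2 fold change was 2.30 ± 0.64 (SE, 95% interval 0.88 to 3.72) with an edgeR adjusted p of 0.0569. DESeq2 called Fmod (adjusted p = 0.00217), as did edgeR with no filter on low counts (0.0263); over 14 alternatives its adjusted p reached 0.151.

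Osteoglycin (Ogn), also called mimecan, belongs to a further class. Ogn (chr13:49608071-49624500, plus strand, 7 exon blocks) had 46, 34 and 32 counts in HF_KO and 11, 20 and 9 counts in HF_CONT. The groups did not overlap, but the counts were small. Ogn rose by 1.62 ± 0.42 on the log2 scale (SE, edgeR adjusted p = 0.0488). This call rested on all 6 libraries together: without HF_KO replicate 1, 2 or 3, or without HF_CONT replicate 1, 2 or 3, it missed the threshold, with edgeR adjusted p-values from 0.0792 to 0.15 and log2 fold changes of 1.36 or more.

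Matrix Gla protein was the gene with the narrowest interval. Mgp (chr6:136872435-136875805, minus strand, 4 exon blocks) had 22.1, 19.9 and 18.8 CPM in HF_KO and 8.42, 10.75 and 7.24 CPM in HF_CONT. Both groups were tight, and the fold was the smallest of the 6 genes that rose, 2.30-fold (95% interval 1.81 to 2.94). Its log2 fold change was 1.20 ± 0.16 (SE, edgeR adjusted p = 0.00841). Dcn, Lum, Prelp and Mgp were called under each of the 14 alternatives run, with adjusted p of at most 0.0283 for Dcn, 0.0443 for Lum, 0.042 for Prelp and 0.0461 for Mgp. Without HF_KO replicate 1 and without HF_CONT replicate 2, only these 4 genes of the 8 were called, where 0.402% and 0.622% of all tested genes rose. Leaving out HF_KO replicate 2 or 3, or HF_CONT replicate 1 or 3, left 5 of the 8 called, where 2.81%, 1.87%, 3.81% and 1.24% of all tested genes rose. Under DESeq2 and without the expression filter, 7 of the 8 were called, where 6.57% and 4.4% of all genes rose. The same 6 genes were called with RLE factors, upper-quartile factors, a minimum of 1 CPM in 3 or more libraries, limma-voom, and acinar and hormone genes removed, where 4.06%, 4.48%, 4.51%, 3.91% and 4.25% of all tested genes rose. None of the 8 genes had an exon that overlapped another listed gene.

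**Figure D2:**
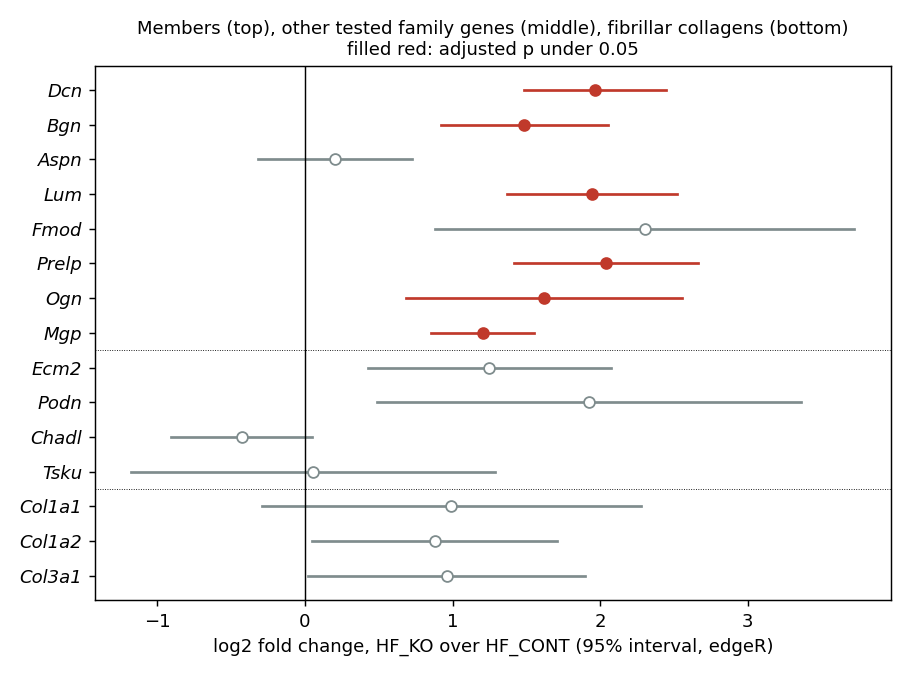
Log2 fold change of HF_KO over HF_CONT with its 95% interval for the 8 genes, the 4 other family genes that were tested, and 3 fibrillar collagens; filled red points were called by edgeR. Aspn lies at 0.20, apart from Dcn at 1.97 and Bgn at 1.49, and the collagen intervals are wide.

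Several of the genes lie beside each other in the genome. Dcn and Lum are 47.3 kb apart on chromosome 10, followed by Kera and Epyc, which had no count in any library. Aspn and Ogn are 40.5 kb apart on chromosome 13 and are read from the same strand, with Omd between them. Ogn rose and Aspn was not called, and the ratio of Ogn counts to Aspn counts was 0.272 to 0.489 in HF_KO and 0.0811 to 0.156 in HF_CONT. The difference between Ogn and Aspn in log2 fold change was not tested. Their 95% intervals overlapped, at 0.69 to 2.55 for Ogn and −0.32 to 0.73 for Aspn. The Ogn call was lost with any single library left out. The 250 bases before the RefSeq start of Ogn and Aspn are printed because Ogn was called and Aspn was not. Those of Bgn and Prelp, which both rose, are printed beside them for contrast in base composition. The sequences come from RefSeq (GRCm38.p6), 5′ to 3′ on the gene's own strand, at chr13:49607765-49608014 for Ogn, chr13:49544193-49544442 for Aspn, chrX:73483351-73483600 for Bgn and chr1:133921402-133921651 for Prelp (minus strand). Capitals mark TATAAA or GGGCGG on either strand.
Ogn: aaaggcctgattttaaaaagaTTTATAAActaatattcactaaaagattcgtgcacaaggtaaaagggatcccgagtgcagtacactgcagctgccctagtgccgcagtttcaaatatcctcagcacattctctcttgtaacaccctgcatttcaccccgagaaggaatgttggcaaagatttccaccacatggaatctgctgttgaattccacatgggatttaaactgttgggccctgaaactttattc
Aspn: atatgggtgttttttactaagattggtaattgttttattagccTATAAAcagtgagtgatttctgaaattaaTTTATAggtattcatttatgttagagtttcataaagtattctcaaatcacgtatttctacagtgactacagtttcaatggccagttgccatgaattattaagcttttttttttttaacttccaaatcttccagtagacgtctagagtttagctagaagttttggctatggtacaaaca
Bgn: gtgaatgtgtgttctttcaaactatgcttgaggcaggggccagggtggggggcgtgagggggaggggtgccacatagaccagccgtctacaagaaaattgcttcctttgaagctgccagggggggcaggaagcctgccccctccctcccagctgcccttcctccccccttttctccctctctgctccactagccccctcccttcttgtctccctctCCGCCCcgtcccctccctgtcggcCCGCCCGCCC
Prelp: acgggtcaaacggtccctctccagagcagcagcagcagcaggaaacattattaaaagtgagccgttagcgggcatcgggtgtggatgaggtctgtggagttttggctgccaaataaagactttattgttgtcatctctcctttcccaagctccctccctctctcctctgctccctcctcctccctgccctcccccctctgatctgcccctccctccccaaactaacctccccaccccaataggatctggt

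The 4 windows span a wide range of base composition, for which Bgn and Prelp were picked. Aspn had 30.0% G and C bases, Ogn 42.0%, Prelp 55.6% and Bgn 64.4%, against a median of 52.4% over 32851 such windows. The Fmod window, matched but not printed, had 51.2%. TATAAA, on either strand, lay in the windows of both Ogn and Aspn, the gene that rose and the gene that was not called. The Ogn matches overlap each other on opposite strands, 229 and 227 bases before the start, and those of Aspn lie at 207 and 178 bases. Of all windows, 12.4% hold this motif. GGGCGG was found in the Bgn window at 34, 10 and 6 bases before the start, the last pair overlapping, and 32.7% of all windows hold it. These matches are letters in a window and are not evidence that a factor binds there. RefSeq windows were matched by symbol for 5 of the 8 genes, Bgn, Fmod, Ogn, Prelp and Aspn.

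To compare levels between genes, CPM was divided by exon length in kb. In HF_KO, Mgp was highest at 33.8 ± 2.85 CPM per kb, followed by Dcn at 20.5 ± 3.61, Bgn at 9.22 ± 3.23, Lum at 5.43 ± 0.497, Prelp at 2.93 ± 1.13, Aspn at 2.15 ± 0.372, Fmod at 1.12 ± 0.536 and Ogn at 0.689 ± 0.0940 CPM per kb (SD, n = 3). Prelp and Aspn overlapped in that order, as did Fmod and Ogn. In HF_CONT the order on the same scale was Mgp at 14.7 ± 2.98, Dcn at 5.24 ± 1.60, Bgn at 3.29 ± 0.860, Aspn at 1.86 ± 0.406, Lum at 1.40 ± 0.548, Prelp at 0.713 ± 0.0844, and Fmod and Ogn both at 0.223 CPM per kb. Dcn and Bgn overlapped in the controls, as did Aspn and Lum. Aspn thus ranked below Lum and Prelp in HF_KO and above both in HF_CONT.

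The make-up of the group shifted with this. Aspn took 2.01% to 3.36% of the summed CPM per kb of the 8 genes in HF_KO and 6.28% to 6.94% in HF_CONT. Dcn took 25.6% to 27.98% in HF_KO and 14.9% to 20.99% in HF_CONT, and Prelp 2.97% to 4.76% in HF_KO and 2.37% to 2.76% in HF_CONT. The shares of Lum, Bgn, Fmod, Ogn and Mgp overlapped between groups. The ratio of Lum counts to Dcn counts was 0.267 ± 0.0297 in HF_KO and 0.267 ± 0.0705 in HF_CONT (SD, n = 3 each).

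Proteoglycans of this family coat fibrils of collagens I and III, so the 8 genes were set beside Col1a1, Col1a2 and Col3a1, which encode their chains. The summed level of the 8 genes was 139.5, 115.0 and 96.3 CPM in HF_KO and 29.7, 44.6 and 41.7 CPM in HF_CONT, a ratio of means of 3.03. The summed level of the 3 collagens was 319.0, 266.0 and 229.7 CPM in HF_KO and 48.1, 115.5 and 257.8 CPM in HF_CONT. The collagens overlapped between groups: HF_CONT replicate 3 stood above HF_KO replicate 3, while its sum of the 8 genes stayed with the other controls. Col1a1 alone had 91.3, 68.8 and 57.9 CPM in HF_KO and 8.15, 24.5 and 76.7 CPM in HF_CONT.

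None of the 3 collagens was called. Their log2 fold changes were 0.99 ± 0.58 for Col1a1 (SE, edgeR adjusted p = 0.303), 0.88 ± 0.37 for Col1a2 (0.168) and 0.96 ± 0.42 for Col3a1 (0.179). Without HF_CONT replicate 3 all 3 collagens were called, with log2 fold changes of 2.14 (adjusted p = 0.0333), 1.45 (0.0462) and 1.66 (0.0335). Over the 14 alternatives the adjusted p reached 0.562, 0.36 and 0.382 for these genes. The ratio of the summed 8 genes to the summed collagens was 0.437, 0.432 and 0.419 in HF_KO and 0.617, 0.386 and 0.162 in HF_CONT. HF_KO libraries agreed within 1.04-fold on this ratio, controls spread over 3.82-fold, and the HF_KO values lay inside the range of the controls. The log2 ratio of the group means was 0.15, and it was −0.22 without HF_CONT replicate 3 and 0.65 without HF_CONT replicate 1.

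**Figure D3:**
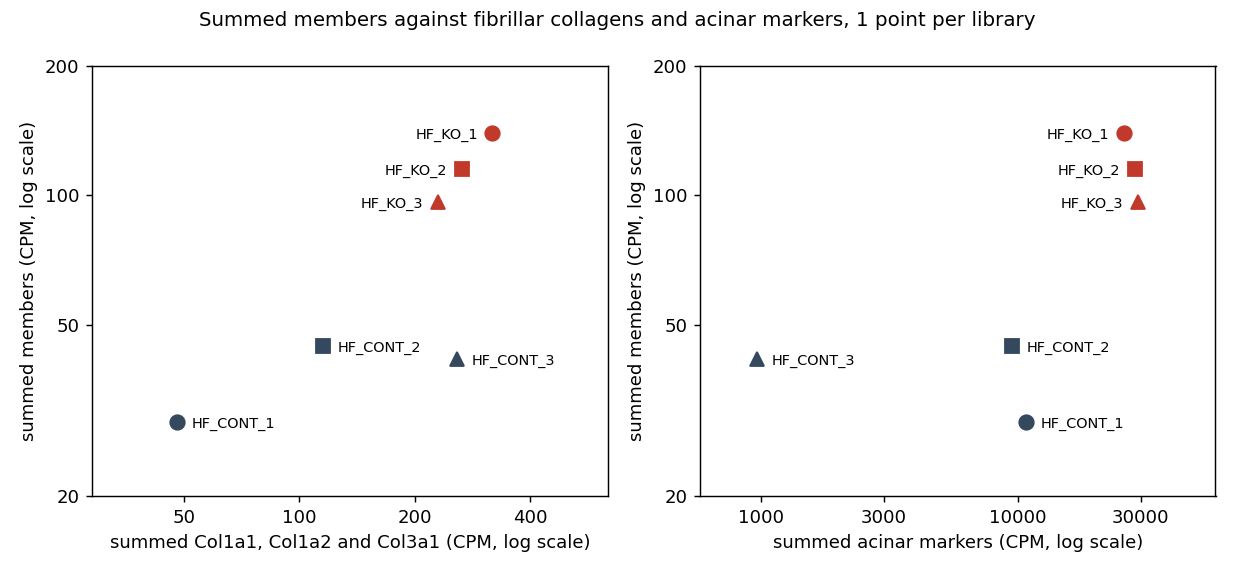
Summed level of the 8 genes against that of 3 fibrillar collagens (left) and 16 acinar markers (right), in CPM on log axes, 1 labelled point per library with HF_KO in red and HF_CONT in dark blue. HF_CONT_3 has 257.8 CPM of collagens, inside the HF_KO range, and 962.8 CPM of acinar markers, the lowest of the 6 libraries, with 41.7 CPM for the 8 genes summed.

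Markers of other cells also differed between the groups. Beside the counts for the lists here and below, 4.14% of all tested genes rose and 2.63% fell. Calls over all genes also dropped with single libraries left out, from 929 to 64 without HF_KO replicate 1 and to 99 without HF_CONT replicate 2. Losses of calls in a list under these settings are therefore not particular to that list. Fibroblast and quiescent stellate markers rose for 4 of 15 and fell for 0, and their summed level was 437.7 to 583.5 CPM in HF_KO and 189.2 to 428.7 CPM in HF_CONT. The most abundant per length included Gsn, the actin-severing gelsolin, at 175.2 ± 27.1 CPM in HF_KO and 127.5 ± 19.0 CPM in HF_CONT, which was not called. The 4 that rose, named after their values were seen, were Pdgfra, a receptor that marks fibroblasts, Clec3b, Dpep1 and Cd34. Exons of Pdgfra overlap Mir7025 and those of Cd34 overlap Gm16897. HF_CONT replicate 3, at 428.7 CPM, lay just under the lowest HF_KO library for this list. The list includes Col1a1, Col1a2 and Col3a1, so this is not separate from the collagen values above. These 3 collagens made up 257.8 CPM of that control's sum, and 229.7 CPM of the sum in HF_KO replicate 3. None of these markers was called without HF_KO replicate 1 or HF_CONT replicate 2, and 2 were without HF_KO replicate 3. Of 9 tested pericyte and smooth muscle markers, only the receptor gene Notch3 rose (named after its values were seen), with a summed level of 79.8 to 113.6 CPM in HF_KO and 42.5 to 72.3 CPM in HF_CONT; Rgs5, Acta2 and Tagln, whose exons overlap Pcsk7, were not called. The Notch3 call was lost without any 1 of the HF_KO libraries and without HF_CONT replicate 2 or 3, and 2 of these markers were called without HF_CONT replicate 1.

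Endothelial cells can also express Mgp and Bgn. Endothelial markers rose for 4 of 12 and fell for 0, at a summed 522.5 to 615.5 CPM in HF_KO and 368.2 to 487.3 CPM in HF_CONT, while the 3 most abundant per exon length, Plvap, Esam and Emcn, were not called. Of the endothelial markers, 0 were called without HF_KO replicate 1 and 2 with any other single library left out. Those that rose, named after their values were seen, were Pecam1, Tek, Vwf and Robo4. Macrophage markers rose for 6 of 11, Lyz2 among them and C1qa and C1qb not, at 267.8 to 358.5 CPM in HF_KO and 154.3 to 162.6 CPM in HF_CONT. They gave 2 calls without HF_KO replicate 1 or HF_CONT replicate 2, and 3 without HF_CONT replicate 3. Duct markers rose for 2 of 8, Spp1 and Clu but not Krt7, at 708.7 to 954.5 CPM in HF_KO and 394.3 to 514.5 CPM in HF_CONT. Duct calls came to 0 without HF_KO replicate 1 or HF_CONT replicate 2, and to 1 without HF_KO replicate 2 or 3 or HF_CONT replicate 3. Among Schwann cell markers Erbb3 rose and Gfra3 was not called, and the Erbb3 call was lost without HF_KO replicate 1 or 3 or HF_CONT replicate 2 or 3. Acinar markers rose for 1 of 15 and fell for 0, with a median log2 fold change of 1.97 and a summed 25830 to 29310 CPM in HF_KO and 962.8 to 10730 CPM in HF_CONT. Cela1, Cela2a (overlapping Casp9) and Pnlip, the most abundant per exon length, were not called, and HF_CONT replicate 3 was the library at 962.8 CPM. The acinar gene that rose was Amy1, named after its values were seen, whose reads may be shared with close amylase copies. Without HF_CONT replicate 3, 14 acinar markers were called, and none without HF_KO replicate 1 or HF_CONT replicate 2. Of these lists, no gene was at 0 in all libraries. The part of other cell types in the result for the 8 genes was not tested.

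Mesothelial and tendon or cartilage cells also make some of these proteins. Only 2 of 6 mesothelial markers passed the filter on low counts, Msln and Krt19. Neither was called, and their means went opposite ways. Msln stood at 56.3 ± 23.8 CPM in HF_KO and 112.3 ± 51.2 CPM in HF_CONT. Krt19, also listed as a duct marker, stood at 45.15 ± 35.1 CPM in HF_KO and 8.575 ± 8.06 CPM in HF_CONT. The mesothelial sum, made up mostly of these 2 genes, overlapped, at 50.3 to 164.3 CPM in HF_KO and 72.99 to 164.1 CPM in HF_CONT. Without HF_CONT replicate 1, 2 genes of this list were called. Of 7 tendon and cartilage markers, 2 passed, Mkx and Sox9, neither called, at a summed 12.3 to 22.9 CPM in HF_KO and 2.53 to 10.5 CPM in HF_CONT. Sox9, also listed as a duct marker, made up most of this sum, at 9.96 to 20.99 CPM in HF_KO and 1.11 to 8.56 CPM in HF_CONT, and Mkx had a log2 fold change of −0.05. The tendon marker Tnmd had 0 counts in all 6 libraries. β cell markers fell for 4 of 10, Nkx6-1, Slc2a2, Ucn3 and Slc30a8, named after their values were seen, while the hormone genes Ins1, Ins2 and Iapp were not called. The count was 0 without HF_KO replicate 1 or HF_CONT replicate 2, and 1 without HF_CONT replicate 3. The median log2 fold change of the 10 β cell markers was −0.59, and it was above 0 for 2 of 10. The β cell sum overlapped, at 393600 to 448300 CPM in HF_KO and 367100 to 496000 CPM in HF_CONT. β cell transcripts were thus abundant in every library, which does not measure how pure the islets were.

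The rest of the family was sparse in these islets. Of 11 further small leucine-rich proteoglycan genes, 4 passed the filter on low counts and none was called. Ecm2, which lies 11.7 kb from Aspn, stood at 2.59 ± 0.906 CPM in HF_KO and 1.08 ± 0.187 CPM in HF_CONT, with an edgeR adjusted p of 0.0675. Podn stood at 2.16 ± 1.22 CPM in HF_KO and 0.558 ± 0.404 CPM in HF_CONT, with an edgeR adjusted p of 0.0937. The others, named after their values were seen, were Tsku (edgeR adjusted p = 0.964) and Chadl (0.236), whose exons overlap L3mbtl2. Kera and Epyc, cornea and cartilage members of the family, had 0 counts in all 6 libraries, which allows up to 0.152 CPM in the library where 3 counts weigh most (counting error only).

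None of the tested genes that build the sugar chains of these proteins rose, a count near the background, where 4.14% of all tested genes rose. Of 19 tested genes for chondroitin and dermatan sulfate synthesis, 0 rose and 2 fell, with a median log2 fold change of 0.14. The genes that fell were Fam20b, a kinase that primes the linker sugar, at 98.6 ± 13.2 CPM in HF_KO and 137.1 ± 9.58 CPM in HF_CONT (−0.47 ± 0.12 SE, edgeR adjusted p = 0.0417), and Ust, a sulfotransferase acting on uronic acid in the chain, at 5.91 ± 0.636 CPM in HF_KO and 12.5 ± 2.63 CPM in HF_CONT (−1.08 ± 0.18 SE, edgeR adjusted p = 0.0169). None of 3 tested keratan sulfate genes was called; B4galt1 had an edgeR adjusted p of 0.0763 and Chst2 of 0.205. The chondroitin and dermatan sulfate calls went to 0 without HF_KO replicate 1, and to 1 without HF_KO replicate 3 or any single control.

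Vitamin K-dependent modification turns Mgp into its active form. The carboxylase gene Ggcx and the vitamin K reductase gene Vkorc1, named after their values were seen, were not called (edgeR adjusted p = 0.437 and 0.0855). Of 7 tested genes in this list 2 rose, both Gla proteins like Mgp. Gas6, a ligand of TAM receptors, stood at 39.97 ± 8.58 CPM in HF_KO and 18.9 ± 2.45 CPM in HF_CONT (log2 fold change 1.08 ± 0.16 SE, edgeR adjusted p = 0.0123). Pros1, protein S, stood at 15.97 ± 1.91 CPM in HF_KO and 8.45 ± 1.12 CPM in HF_CONT (0.92 ± 0.15 SE, edgeR adjusted p = 0.0156). Without HF_KO replicate 1 or HF_CONT replicate 2, 1 gene of this list was called.

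Among genes that mature collagen and trim the propeptides of matrix proteins, 4 of 14 rose and 0 fell, with a median log2 fold change of 0.53. Pcolce, an enhancer of procollagen cleavage, stood at 10.3 ± 2.92 CPM in HF_KO and 3.52 ± 1.64 CPM in HF_CONT (edgeR adjusted p = 0.0284). Adamts2, a procollagen protease, stood at 5.41 ± 1.68 CPM in HF_KO and 1.88 ± 0.505 CPM in HF_CONT (edgeR adjusted p = 0.0278), and Serpinh1, a collagen chaperone, at 49.9 ± 2.28 CPM in HF_KO and 31.1 ± 7.05 CPM in HF_CONT (edgeR adjusted p = 0.0319). Plod3, a lysyl hydroxylase whose exons overlap Znhit1 and Mir702, was the other gene that rose, named after its values were seen. The count of calls was 0 without HF_KO replicate 1 or HF_CONT replicate 2, 1 without HF_KO replicate 3 and 2 without HF_CONT replicate 3. In these 4 settings 0.402%, 0.622%, 1.87% and 1.24% of all tested genes rose.

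Elastic fibre and microfibril genes rose for 6 of 16 and fell for 0, with a median log2 fold change of 0.77. Elastin (Eln) stood at 6.16 ± 0.958 CPM in HF_KO and 2.51 ± 0.551 CPM in HF_CONT (1.29 ± 0.24 SE, edgeR adjusted p = 0.0215). The fibulins Fbln2 (1.83 ± 0.35 SE, edgeR adjusted p = 0.023) and Fbln5 (1.04 ± 0.19 SE, edgeR adjusted p = 0.0208) link elastic fibres to other matrix and rose too. Fbln1, Mfap4 and Ltbp1 also rose and were named after their values were seen. The count of calls was 0 without HF_KO replicate 1 and 1 without HF_CONT replicate 2 or 3.

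Of 21 tested ligands and receptors linked to decorin or biglycan, not all of them direct binding partners, 2 rose and 0 fell. Tgfbr2, the type II TGF-β receptor, stood at 20.1 ± 1.04 CPM in HF_KO and 9.73 ± 1.48 CPM in HF_CONT (1.04 ± 0.14 SE, edgeR adjusted p = 0.00841). Cd44, a hyaluronan receptor, stood at 63.1 ± 12.3 CPM in HF_KO and 41.6 ± 3.66 CPM in HF_CONT (0.60 ± 0.14 SE, edgeR adjusted p = 0.0362). Of 20 tested large and cell-surface proteoglycans and related matrix genes, 4 rose and 1 fell. The matrix protein Smoc2 rose by 2.06 ± 0.28 on the log2 scale (SE, edgeR adjusted p = 0.00892), the syndecan Sdc1 by 1.76 ± 0.21 (SE, edgeR adjusted p = 0.00661) and serglycin (Srgn), a proteoglycan of blood cell granules, by 0.81 ± 0.17 (SE, edgeR adjusted p = 0.0284). Agrn rose and Spock2 fell, both named after their values were seen. Ligand and receptor calls came to 1 without HF_KO replicate 1 or 3 or HF_CONT replicate 2 or 3. Large proteoglycan calls came to 2 without HF_KO replicate 1 or HF_CONT replicate 2 or 3, and to 3 without HF_KO replicate 2.

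**Figure D4:**
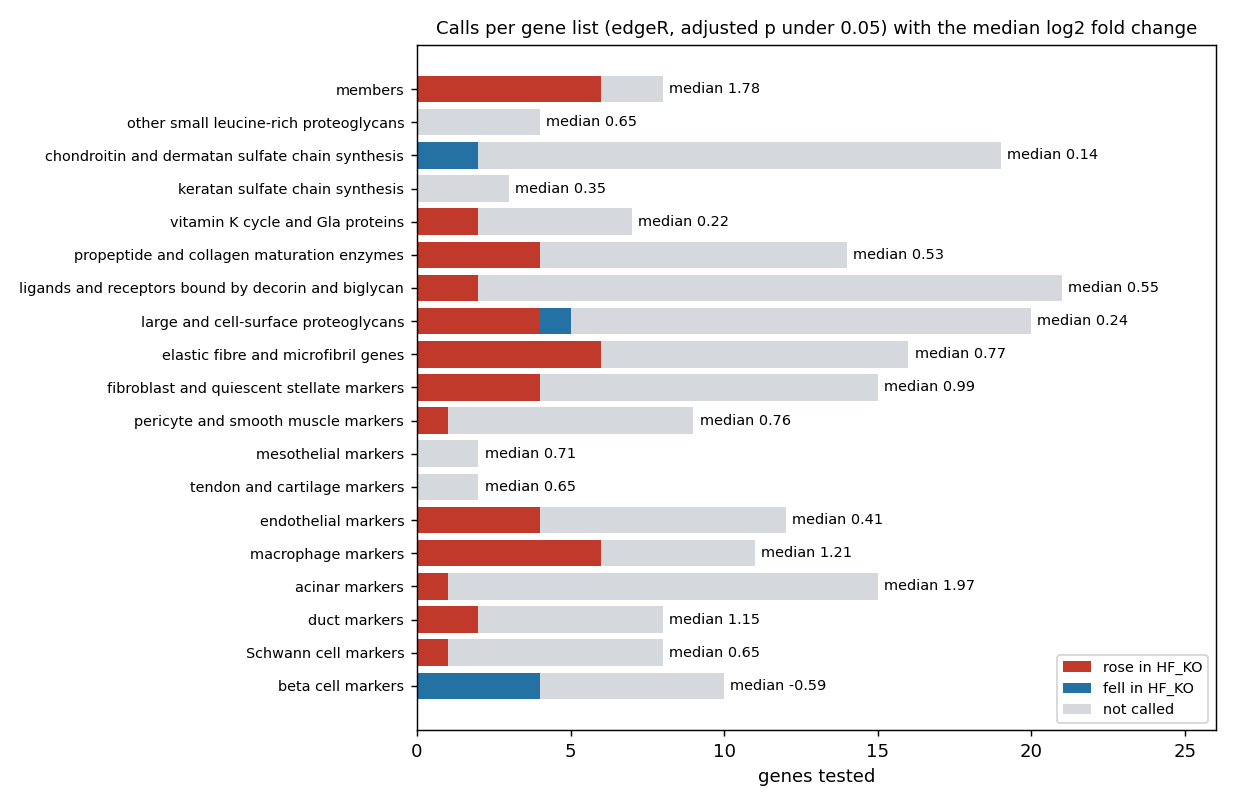
Number of tested genes per list that rose (red), fell (blue) or were not called (grey) in HF_KO against HF_CONT, with the median log2 fold change of the tested genes beside each bar. The 8 genes described here stand in the top bar with 6 rises and a median of 1.78. The acinar list has a larger median, 1.97, with 1 rise, and the chain synthesis lists hold no rise.

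Genes whose pattern was most like the mean of the 8 were sought across the 6 libraries by Pearson's r of log2 CPM. The libraries form 2 groups, so r over all 6 takes in the difference between them and is a description only; 77 of 9883 eligible genes had r over 0.95. The 8 nearest were Rhog (r = 0.998), S1pr3 (0.995), Aebp1 (0.994), Slc25a38 (0.993), Pros1 (0.993), Trf (0.993), Vwf (0.992) and Serpine2 (0.991). Pearson's r does not measure the size of a change. Rhog and Slc25a38 were not called, with log2 fold changes of 0.346 and 0.413 (edgeR adjusted p = 0.098 and 0.0686). S1pr3, Aebp1, Pros1, Trf, Vwf and Serpine2 rose, with log2 fold changes from 0.633 (S1pr3) to 1.82 (Aebp1). Aebp1, a collagen-binding matrix protein whose exons overlap Pold2, had 8.71, 9.49 and 6.50 CPM in HF_KO and 1.44, 3.04 and 2.49 CPM in HF_CONT. Among the 8 genes themselves, Dcn lay closest to their mean (r = 0.999) and Aspn farthest (r = 0.533). These r values are raised by the gene's own part in the mean and take in the group difference. With each group's mean taken off, r between pairs of the 8 genes ran from −0.301 (Lum and Ogn) to 0.987 (Ogn and Mgp).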

How the data were processed

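The authors deposited raw gene counts, 1 column per library, beside exon coordinates and exon length in bp, per the file headers. Tools listed in the submitters' processing notes are featureCounts from Subread 1.5.0, STAR 2.4.2a and edgeR, with build mm10. The strand and multi-mapping settings and the annotation were not given in the sources used here. Per the labels' protocols, cDNA was primed with poly-dT from 10 ng of RNA by SMART-Seq v4 and then sheared; no strand marking and no molecular identifier is named.

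Counts were fitted for all genes in edgeR 4.0.16 (R 4.3.3) with TMM factors, the default expression filter and group as the only term. Adjusted p-values are Benjamini-Hochberg values of its quasi-likelihood test, and standard errors come from the fold change and the F value. CPM uses TMM-scaled library sizes. The procedure was tested on simulated data. Ratios, sums and shares over the 8 genes are descriptions without a test. The 8 genes, the 8 pathway lists and the 10 marker lists were chosen with earlier results of these data known.

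Named genes were the 8 genes, Dhps and 3 collagens; up to 3 called genes with the smallest p per pathway list, or 2 where none was called; the 3 most abundant tested genes per length of each marker list; and the 8 nearest in pattern whose mean log2 CPM was 2 or more, passing over predicted genes. A gene this rule names is not reported here. Alternatives were RLE and upper-quartile factors, other filters, DESeq2 1.42.0, limma-voom (limma 3.58.1), a replicate block, scaling with hormone and acinar genes taken out, and each library left out in turn. Replicates differed beyond sampling noise (chi-square at least 10.8 per degree of freedom), and each counted as 1 sample.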

Additional observations from a re-analysis of the deposited data

How the results depend on the processing

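Directions of the 8 genes held under all 14 alternatives. The median log2 fold change of the 8 genes ranged from 1.60 to 1.95 over them, and between 4 and 7 of the 8 were called. Over all genes the count of calls was 929, and it was 1643 with DESeq2 and 1413 without a filter on low counts. It ranged from 64 to 968 with single libraries left out: 64 without HF_KO replicate 1, 344 without HF_KO replicate 3, 99 without HF_CONT replicate 2 and 216 without HF_CONT replicate 3. The cause of these shifts was not tested. The same replicate numbers stand in both groups, but libraries of the same number did not deviate together (r = −0.037, −0.007 and 0.055), and not every library correlated best with its own number, so the numbers were not taken as pairs. With the number as a replicate block, 5 of the 8 genes and 826 of all genes were called, and Ogn was the gene that lost its call (adjusted p = 0.0695). With the log2 ratio of the 8 genes to Col1a1 alone in place of the 3 collagens, the difference between groups was −0.30, against 0.15. Fmod and Ogn had fewer than 100 counts in every library.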
